A study of Oryza sativa with 12 samples.

Results

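The response of rice transcripts to warm nights was compared between a pair of near-isogenic lines, as the line by heat interaction: the log2 change under night heat in the tolerant line minus the same change in the sensitive line. A positive value means that the tolerant line changed more upward (or less downward) than the sensitive line, and it is called the difference of responses below. All loci that passed a low-count filter entered, 33281 of the 50708 loci in the table, and 867 of them had a called difference. The lines were XN0437S, labelled heat-sensitive, and XN0437T, labelled heat-tolerant, at the filling stage, and each was sampled as control and after high night temperature stress, written as heat here. Each of the 4 groups had 3 libraries of rRNA-depleted total RNA, 12 in all. Neither temperatures, durations nor the organ are given in the sources used here, and the locus or segment in which the lines differ is likewise not given.

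As background, filling rice grains import sucrose, cleave it with sucrose synthases and invertases, and turn it into starch in the endosperm, while storage proteins are folded in the endoplasmic reticulum (ER) and packed into protein bodies. Heat induces chaperones in the cytosol and organelles through heat stress factors. Load of unfolded protein in the ER raises its own set of chaperones, with BiP as the best known. High temperature during filling is known to impair starch deposition and to raise starch-degrading alpha-amylases, and both are tied to chalky grain.

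Library totals were 85496090 to 100353570 counts. Levels are given in CPM (counts scaled to library size, with TMM), and TMM factors were 0.838 to 0.981 in control and 1.11 to 1.18 in heat. The 5 loci with the most counts took 23.2% to 33.5% of the counts in tolerant control, where the libraries spread widest, against 32.8% to 33.7% in sensitive control and 25.2% to 28.6% in heat. Endosperm markers were high in every library, at a summed 63113 to 66605 CPM in sensitive control, 31639 to 33709 CPM in sensitive heat, 67284 to 72258 CPM in tolerant control and 37704 to 39276 CPM in tolerant heat. Embryo and green tissue markers were present in every library as well, at up to 6048 and 1047 CPM. In such bulk samples fewer cells of a type and less RNA per cell cannot be told apart. No label says that replicates were separate plants, so p-values reflect the scatter of these 12 libraries alone, and that may be technical.

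Most loci that changed under heat in both lines changed the same way. Of the 33281 loci, 10695 changed in the sensitive and 11059 in the tolerant line, and of the 7700 that changed in both, 7625 changed in the same direction. A difference of responses was called in 867 loci (2.61% of those tested), 422 positive (1.27%) and 445 negative (1.34%), by edgeR's quasi-likelihood test at a Benjamini-Hochberg adjusted p under 0.05. Of these, 274 differed by 2-fold or more, 181 positive and 93 negative. Among the 5512 loci with a mean of at least 20 CPM, 9.38% were called (3.70% positive and 5.68% negative). With library totals alone in place of TMM the split was 209 positive and 445 negative, and the median difference of all loci moved from 0.00 to -0.10 on the log2 scale. On log2(FPKM + 1) it was 402 and 745, and on log2(FPKM + 0.1) it was 335 and 700. All differences are on the TMM scale unless another is named.

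**Figure D1:**
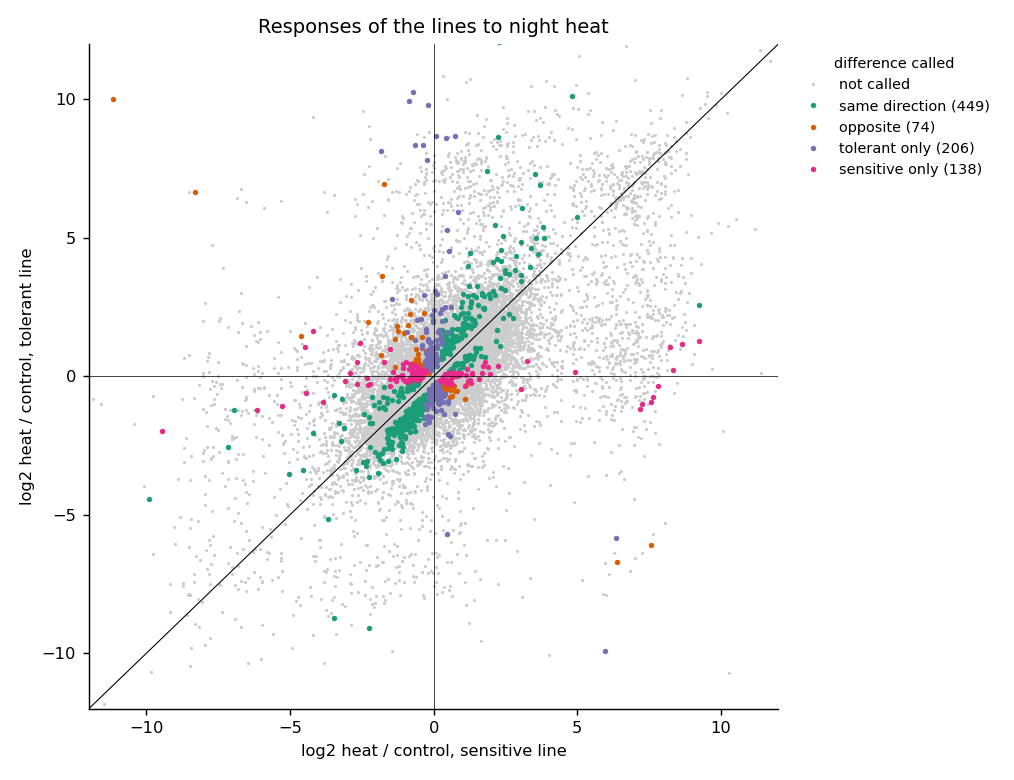
Log2 change under heat in the sensitive line (horizontal) against the tolerant line (vertical), 1 point per tested locus, with called differences coloured by class and the diagonal marking equal responses; 14 loci with a fitted response beyond 12 lie outside the axes. The 449 same-direction loci lie off the diagonal in the quadrants where both lines moved the same way.

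Sorted by the single-line tests, 449 of the 867 loci changed in the same direction in both lines, 74 changed in opposite directions, 206 had a called change in the tolerant line alone and 138 in the sensitive line alone. The same-direction class held 303 of 654 called loci with library totals alone, 478 of 1035 on log2(FPKM + 0.1), 541 of 1147 on log2(FPKM + 1) and 797 of 1752 with DESeq2. None had neither, although 215 loci had an unadjusted p under 0.05 for the difference and for neither response, and DESeq2 placed 10 called loci there. Within the same-direction class the change was larger in the tolerant line for 353 loci and in the sensitive line for 96. The 4 kinds were 215 falls and 138 rises larger in the tolerant line, and 58 falls and 38 rises larger in the sensitive line. The tolerant line was the one with the larger change in 67.4% to 86.3% of same-direction loci over all alternatives run. Of the opposite class, 45 rose in the tolerant and fell in the sensitive line, and 29 did the reverse. With library totals alone these were 20 and 55, so that balance rests on the scaling, and sensitive-only loci were 103 rises and 26 falls against 59 and 79 with TMM. Without tolerant heat 3, 135 loci were in the tolerant-only class. A call in 1 line alone means only that the other line's test missed its threshold.

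**Figure D2:**
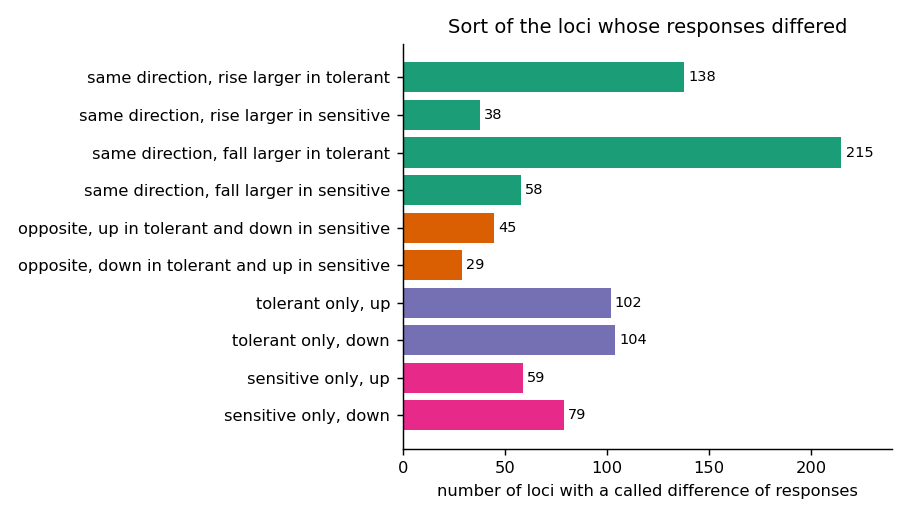
Number of loci with a called difference of responses in each of the 10 kinds of the sort, as bars that start at 0, coloured by class. Falls larger in the tolerant line (215) and rises larger in the tolerant line (138) are the longest bars.

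A difference of responses equals the line difference under heat minus that in control, so each called locus could also be read by where the lines stood apart. Of the 867, the lines differed in control at 490 loci and under heat at 422 (5.42% and 3.40% of all tested loci). These contrasts make up the difference that chose the 867 loci, so nothing is read from the excess. They differed in control only at 375, under heat only at 307, in both at 115 and in neither by its own test at 70. In 94 of the 115 the sign of the line difference turned over. Loci whose rise was larger in the tolerant line had a median log2 line difference (tolerant minus sensitive) of -0.41 in control and 0.42 under heat. Of these 138, 55 had a called line difference in control only, 55 under heat only, and 14 in both with opposite signs. Loci whose fall was larger in the tolerant line had medians of 0.25 and -0.37. For loci called in the sensitive line alone, medians were 0.51 in control and -0.28 under heat where it rose, and -0.59 and 0.40 where it fell.

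Among rises larger in the tolerant line, the 3 genes with the largest differences that met the rule for names were low in tolerant control. Basic 7S globulin 2 (LOC_Os01g71080, chromosome 1, 41139174 to 41140671), named after a soybean seed globulin, stood at 1.57, 1.82 and 1.53 CPM in sensitive control, 22.0, 19.7 and 22.4 CPM in sensitive heat, 0.119, 0.0464 and 0.354 CPM in tolerant control and 20.4, 22.0 and 20.9 CPM in tolerant heat. Its heat libraries overlapped between the lines and its control libraries did not, and the difference of responses was 3.22 ± 0.48 (SE; adjusted p = 0.00314). A leucine-rich repeat extensin-like gene (LOC_Os03g58110, chromosome 3, 33083781 to 33085552), of a family of cell wall proteins, rose from 1.15 ± 0.190 to 9.41 ± 0.802 CPM (mean ± SD, n = 3, as below) in the sensitive and from 0.453 ± 0.163 to 13.1 ± 0.251 CPM in the tolerant line, a difference of 1.82 ± 0.31 (adjusted p = 0.00716). An MST7-like sugar transporter (LOC_Os01g38680, chromosome 1, 21723837 to 21725906) rose from 1.71 ± 0.595 to 9.24 ± 1.17 CPM and from 0.227 ± 0.155 to 7.69 ± 0.501 CPM, a difference of 2.64 ± 0.55 (adjusted p = 0.0234). A receptor-like kinase annotated as FERONIA (LOC_Os04g49690, chromosome 4, 29636070 to 29638259), a class that senses the cell wall, rose from 4.24 ± 1.06 to 30.9 ± 0.521 CPM and from 1.84 ± 0.124 to 37.4 ± 2.25 CPM, a difference of 1.48 ± 0.21 (adjusted p = 0.00249). Expansin-A23 (LOC_Os02g16809, chromosome 2, 9589066 to 9590040), a wall-loosening protein, differed by 1.82 ± 0.33 (adjusted p = 0.0106). The MST7-like gene was not called with limma on log2(FPKM + 1) (adjusted p = 0.381). Without sensitive control 3, sensitive heat 1, sensitive heat 2, tolerant heat 2 or tolerant heat 3 in turn, the call of the MST7-like gene was lost (adjusted p = 0.0542 to 0.0645).

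Rises larger in the sensitive line numbered 38 against 138 larger in the tolerant line, with a median difference of -0.51 against 0.83. The balance rests on the scaling: it was 71 against 86 with library totals alone, 136 against 139 on log2(FPKM + 0.1) and 142 against 182 on log2(FPKM + 1). An NADPH oxidase gene annotated as RBOHB (LOC_Os12g35610, chromosome 12, 21648123 to 21653569), of a family that makes superoxide at the cell surface, stood at 17.9, 15.5 and 18.2 CPM in sensitive control, 60.9, 63.4 and 52.6 CPM in sensitive heat, 29.0, 27.0 and 25.1 CPM in tolerant control and 45.2, 40.8 and 46.0 CPM in tolerant heat. The groups did not overlap: the sensitive line went from lowest to highest, a difference of -1.08 ± 0.14 (adjusted p = 0.000965). A linoleate 9S-lipoxygenase (LOC_Os03g49380, chromosome 3, 28106903 to 28113300), which oxygenates fatty acids, rose by log2 1.36 in the sensitive and 0.64 in the tolerant line, a difference of -0.72 ± 0.11 (adjusted p = 0.00479). The alkane hydroxylase MAH1 (LOC_Os01g08810, chromosome 1, 4421318 to 4423107), a wax enzyme in Arabidopsis, rose by 2.32 and 1.11, a difference of -1.21 ± 0.27 (adjusted p = 0.0359). A cytochrome b561 and DOMON domain gene (LOC_Os01g67030, chromosome 1, 38924789 to 38926508) differed by -0.93 ± 0.22 (adjusted p = 0.0461). The call of MAH1 was lost without each of 9 libraries in turn (adjusted p = 0.0654 to 0.0839), and kept without sensitive control 1, tolerant control 1 or tolerant heat 3. The call of the cytochrome b561 gene was lost without each of 10 libraries in turn (adjusted p = 0.0577 to 0.109), and kept without sensitive control 1 or sensitive control 2.

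Falls larger in the tolerant line made up the largest kind. A lipoxygenase-like gene (LOC_Os08g39850, chromosome 8, 25240906 to 25250279) stood at 28.0, 27.3 and 24.8 CPM in sensitive control, 12.96, 8.95 and 10.5 CPM in sensitive heat, 42.5, 37.5 and 40.05 CPM in tolerant control and 5.10, 6.29 and 3.96 CPM in tolerant heat. It was highest in tolerant control and lowest in tolerant heat, with no overlap between any groups, and its difference was -1.66 ± 0.23 (adjusted p = 0.00177). The blue copper protein (LOC_Os06g11490, chromosome 6, 6086798 to 6088248), a small extracellular electron carrier, fell from 21.8 ± 3.64 to 10.1 ± 1.07 CPM in the sensitive and from 18.7 ± 1.498 to 2.86 ± 0.636 CPM in the tolerant line, a difference of -1.60 ± 0.23 (adjusted p = 0.0028); its control libraries overlapped. NRT1/PTR family 8.1 (LOC_Os01g67630, chromosome 1, 39307423 to 39310581), a peptide transporter in Arabidopsis, differed by -1.59 ± 0.31 (adjusted p = 0.0172). NAC43 (LOC_Os08g02300, chromosome 8, 856109 to 858607), whose Arabidopsis namesake switches on secondary walls, changed by log2 -1.60 and -2.57, a difference of -0.97 ± 0.20 (adjusted p = 0.0201). Ethylene-responsive factor 3 (LOC_Os02g09650, chromosome 2, 4958350 to 4959662), a transcription factor, changed by log2 -0.77 and -1.48, a difference of -0.70 ± 0.11 (adjusted p = 0.00477). NRT1/PTR family 8.1 was not called with limma on log2(FPKM + 1) (adjusted p = 0.0864). Without sensitive heat 1 or tolerant control 3 in turn, the call of NAC43 was lost (adjusted p = 0.0512 to 0.0538).

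Falls larger in the sensitive line numbered 58, but 17 with library totals alone, 20 on log2(FPKM + 0.1) and 26 on log2(FPKM + 1). Among those that met the rule for names, the 2 largest differences were those of enzymes of diterpenoid synthesis. Rice makes diterpenoid phytoalexins (momilactones, phytocassanes and oryzalexins), antimicrobial compounds, from clustered genes on chromosomes 4 and 2. CYP99A2 (LOC_Os04g10160, chromosome 4, 5484768 to 5486773), a P450 of the momilactone cluster, stood at 11.1, 12.5 and 10.02 CPM in sensitive control, 1.03, 0.804 and 1.17 CPM in sensitive heat, 9.92, 9.32 and 10.2 CPM in tolerant control and 5.50, 6.38 and 6.79 CPM in tolerant heat. Sensitive heat lay below every other library while the control libraries of the lines overlapped, and the difference was 2.83 ± 0.22 (adjusted p = 2.74e-05). Syn-copalyl diphosphate synthase (LOC_Os04g09900, chromosome 4, 5318060 to 5326427), the entry enzyme of that pathway, fell from 8.23 ± 0.583 to 0.897 ± 0.252 CPM in the sensitive and from 7.22 ± 0.404 to 4.15 ± 0.395 CPM in the tolerant line, a difference of 2.40 ± 0.26 (adjusted p = 0.000328). A probable 1-deoxy-D-xylulose-5-phosphate synthase (LOC_Os07g09190, chromosome 7, 4821157 to 4824667), the entry step of plastid isoprenoids, changed by log2 -3.28 and -1.69, a difference of 1.60 ± 0.34 (adjusted p = 0.0275). Non-specific lipid-transfer protein 1 (LOC_Os03g59380, chromosome 3, 33798940 to 33799765) fell from 69.7 ± 5.596 to 21.1 ± 1.35 CPM and from 18.4 ± 2.07 to 13.9 ± 0.976 CPM, a difference of 1.32 ± 0.14 (adjusted p = 0.00026). The deoxyxylulose phosphate synthase was not called with library totals alone, limma on log2(FPKM + 0.1) or log2(FPKM + 1) (adjusted p = 0.0583 to 0.128). The call of the deoxyxylulose phosphate synthase was lost without each of 7 libraries in turn (adjusted p = 0.0561 to 0.0683), and kept without sensitive control 3, sensitive heat 1, sensitive heat 2, sensitive heat 3 or tolerant heat 2.

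The opposite class held genes that rose in 1 line and fell in the other. Of the 45 that rose in the tolerant line, 12 had called line differences of opposite sign in control and heat. Of the 29 that did the reverse, 8 had them. Chitinase 1 (LOC_Os06g51060, chromosome 6, 30890711 to 30892066), an enzyme that hydrolyses fungal cell walls, stood at 21.9, 20.6 and 22.5 CPM in sensitive control, 3.58, 5.31 and 4.38 CPM in sensitive heat, 5.14, 5.45 and 4.78 CPM in tolerant control and 20.9, 19.9 and 19.8 CPM in tolerant heat. Sensitive control and tolerant heat were both high and the other two groups low, and the difference was 4.27 ± 0.19 (adjusted p = 6.67e-07). The phytocassane P450 gene annotated as ent-cassadiene C11-alpha-hydroxylase 1-like (LOC_Os02g36110, chromosome 2, 21740304 to 21742030) stood at 7.58, 7.61 and 7.10 CPM in sensitive control, 0.0684, 0.570 and 0.264 CPM in sensitive heat, 1.82, 2.77 and 2.00 CPM in tolerant control and 5.29, 7.24 and 5.64 CPM in tolerant heat. Its sensitive heat libraries lay below the rest, and the difference was 6.08 ± 0.64 (adjusted p = 0.00026). The sugar exporter SWEET14 (LOC_Os11g31190, chromosome 11, 18171678 to 18174478) fell from 50.3 ± 3.46 to 41.6 ± 1.41 CPM in the sensitive and rose from 34.3 ± 2.49 to 45.7 ± 1.08 CPM in the tolerant line, a difference of 0.69 ± 0.10 (adjusted p = 0.0038). Amy3D also belongs here and is given with the amylases. SWEET14 was not called with library totals alone (adjusted p = 0.0602).

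Genes that fell in the tolerant and rose in the sensitive line had smaller differences, at a median of -0.71 against 1.20 for the reverse. MYBAS2 (LOC_Os12g37970, chromosome 12, 23325526 to 23327055), a MYB transcription factor, rose from 8.23 ± 1.22 to 14.5 ± 0.154 CPM in the sensitive and fell from 15.7 ± 4.02 to 10.8 ± 0.399 CPM in the tolerant line, a difference of -1.36 ± 0.24 (adjusted p = 0.0088); its tolerant libraries overlapped. A BTB/POZ domain gene (LOC_Os03g43990, chromosome 3, 24701063 to 24706728) and a CCCH zinc finger gene (LOC_Os05g50080, chromosome 5, 28702047 to 28704507) differed by -1.33 ± 0.20 (adjusted p = 0.00332) and -1.33 ± 0.19 (adjusted p = 0.00256). Cupincin (REG2, LOC_Os03g57960, chromosome 3, 33020035 to 33022949), a storage globulin of the embryo, stood at 1562, 1489 and 1441 CPM in sensitive control, 2051, 2035 and 1952 CPM in sensitive heat, 2199, 2152 and 2293 CPM in tolerant control and 1960, 2043 and 1907 CPM in tolerant heat. Sensitive control was the lowest group and tolerant control the highest, while the heat groups overlapped, and the difference was -0.60 ± 0.06 (adjusted p = 0.000158).

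In the tolerant-only class, Amy3A, described with the amylases, had the largest difference among rises that met the rule for names. A Bet v 1 gene (LOC_Os12g36860, chromosome 12, 22595369 to 22597000), of the PR10 family of pathogenesis-related proteins, rose from 0.622 ± 0.376 to 7.72 ± 0.427 CPM in the tolerant line and stood at 2.103 ± 0.323 and 2.75 ± 0.641 CPM in the sensitive line, a difference of 3.24 ± 0.53 (adjusted p = 0.00588). Dirigent protein 1 (LOC_Os11g42500, chromosome 11, 25593755 to 25594897), of a family that steers phenol coupling, differed by 1.54 ± 0.29 (adjusted p = 0.014). Among falls, sucrose synthase 5 (LOC_Os04g24430, chromosome 4, 14008245 to 14013440) went from 6.75 ± 0.477 to 2.67 ± 0.926 CPM in the tolerant line and stood at 2.11 ± 0.399 and 2.70 ± 0.344 CPM in the sensitive line, a difference of -1.69 ± 0.35 (adjusted p = 0.0233). A RING-H2 gene named ATL80 (LOC_Os02g46100, chromosome 2, 28096979 to 28098033), of a family of ubiquitin ligases, and the transporter ABCG10 (LOC_Os01g42900, chromosome 1, 24408469 to 24410460) differed by -1.49 ± 0.24 (adjusted p = 0.00495) and -1.41 ± 0.25 (adjusted p = 0.0088). Without sensitive control 3, sensitive heat 1, tolerant control 1 or tolerant control 3 in turn, the call of sucrose synthase 5 was lost (adjusted p = 0.0532 to 0.0635).

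In the sensitive-only class, the largest difference among rises that met the rule for names was that of a plastid peroxide-reducing enzyme. Peroxiredoxin-2E-1 (LOC_Os06g42000, chromosome 6, 25214051 to 25216908) stood at 2.19, 1.82 and 1.80 CPM in sensitive control, 59.7, 58.0 and 58.3 CPM in sensitive heat, 44.2, 41.6 and 34.5 CPM in tolerant control and 56.7, 55.9 and 21.3 CPM in tolerant heat. Sensitive control lay far below all other libraries and tolerant heat 3 below the other 2 heat libraries of its group, and the difference was -4.77 ± 0.41 (adjusted p = 5.95e-05). A transcription factor gene annotated as WRKY30 (LOC_Os09g16510, chromosome 9, 10128825 to 10131228) rose from 2.15 ± 0.549 to 10.2 ± 0.961 CPM in the sensitive line and stood at 1.98 ± 0.119 and 2.60 ± 0.752 CPM in the tolerant line, a difference of -1.85 ± 0.31 (adjusted p = 0.00768). Amino acid permease 3 (LOC_Os12g08090, chromosome 12, 4120926 to 4123058) differed by -1.67 ± 0.24 (adjusted p = 0.00244); it has similar copies nearby, so the split of its reads is uncertain. Among falls, the sugar transporter SWEET1b (LOC_Os05g35140, chromosome 5, 20870121 to 20873875) went from 10.4 ± 1.18 to 2.16 ± 0.602 CPM in the sensitive line, a difference of 1.96 ± 0.32 (adjusted p = 0.00617). Genes of the PR10 family annotated as Dau c 1 (LOC_Os12g36830, chromosome 12, 22580778 to 22581972) and Bet v 1-D/H (LOC_Os12g36850, chromosome 12, 22591676 to 22593522) differed by 2.39 ± 0.26 (adjusted p = 0.000296) and 1.93 ± 0.29 (adjusted p = 0.00303).

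Alpha-amylases, which break starch into sugars, gave the 2 largest differences of responses among genes named by rule. Of 9 tested members 5 were called positive and 0 negative (55.6% against 2.61% of all loci), with a median difference of 1.35 against 0.00 over all loci. On log2(FPKM + 0.1) and log2(FPKM + 1) 3 members were called on each, with medians of 0.60 and 0.17. Amylases are a family of close copies, so the split of reads between them is uncertain. Amy3A (LOC_Os09g28400, chromosome 9, 17288993 to 17291295) stood at 11.8, 7.59 and 8.34 CPM in sensitive control, 6.03, 4.78 and 6.22 CPM in sensitive heat, 0, 0 and 0.0472 CPM in tolerant control and 19.1, 21.9 and 22.1 CPM in tolerant heat. Its tolerant control libraries held 0, 0 and 4 counts, against 4.78 CPM or more in every other library. The fitted difference of 10.98 ± 0.55 (adjusted p = 8.48e-07) depends on the prior count at such levels. Low counts often came in steps of 4, so 12 counts per library served as the floor: against it the tolerant rise was at least 149-fold and the log2 difference 7.93. Amy3D (LOC_Os08g36910, chromosome 8, 23340676 to 23343533) stood at 5.14, 3.67 and 4.62 CPM in sensitive control, 1.41, 1.51 and 1.17 CPM in sensitive heat, 0, 0 and 0.189 CPM in tolerant control and 9.76, 7.08 and 6.85 CPM in tolerant heat. Tolerant control, with 0, 0 and 16 counts, was again the lowest group and tolerant heat the highest, and the fitted difference was 8.66 ± 0.90 (adjusted p = 0.000242), or 14.24 without tolerant control 3. Amy3E (LOC_Os08g36900, chromosome 8, 23335165 to 23337151), the most abundant of the list, stood at 36.8, 34.8 and 39.1 CPM in sensitive control, 47.1, 44.6 and 45.5 CPM in sensitive heat, 47.0, 45.0 and 48.7 CPM in tolerant control and 140.4, 156 and 149 CPM in tolerant heat. Tolerant heat lay above every other library, a difference of 1.35 ± 0.09 (adjusted p = 1.15e-05).

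The called Amy1A (LOC_Os02g52710, chromosome 2, 32248279 to 32250180) and Amy1C (LOC_Os02g52700, chromosome 2, 32243146 to 32245056) are listed after their values were seen and were low, at up to 3.21 and 0.554 CPM as a group mean, and are close copies between which reads may be split. Amy1A had 1.33 ± 0.441 and 3.21 ± 0.538 CPM in the sensitive line and 0.0352 ± 0.0309 and 0.792 ± 0.283 CPM in the tolerant line in control and heat, a fitted difference of 3.17 ± 0.76 (adjusted p = 0.0481). On log2(FPKM + 1) the difference of Amy1A turned to -0.35 (adjusted p = 0.38). Summed over the list, amylases stood at 121, 116 and 126 CPM in sensitive control, 107, 112 and 116 CPM in sensitive heat, 108, 113 and 115 CPM in tolerant control and 221, 242 and 234 CPM in tolerant heat. Tolerant heat lay above every other library, and the other groups lay between 107 and 126 CPM. Amy1A was not called with library totals alone, limma on log2(FPKM + 0.1) or log2(FPKM + 1), or the replicate number as a block (adjusted p = 0.0644 to 0.589). Amy1C was not called with limma on log2(FPKM + 0.1) or log2(FPKM + 1) (adjusted p = 0.0889 to 0.211). The call of Amy1A was lost without each of 10 libraries in turn (adjusted p = 0.0528 to 0.116), and kept without tolerant control 3 or tolerant heat 1.

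**Figure D3:**
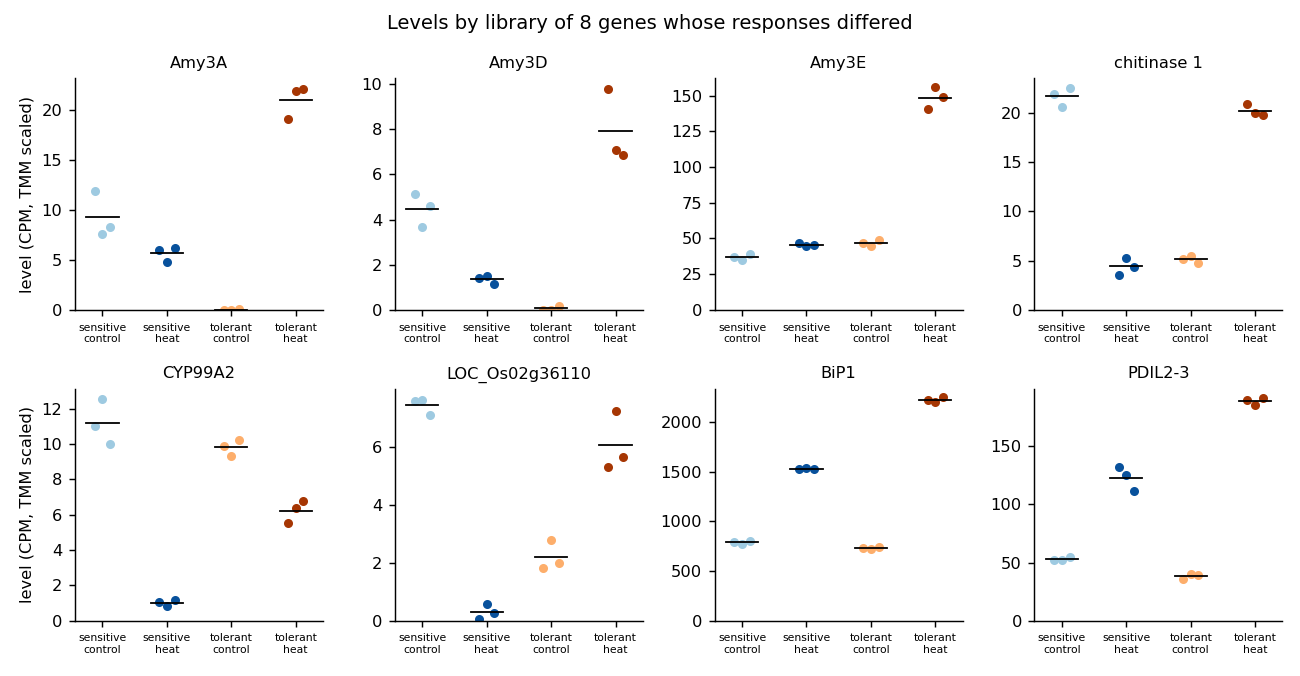
Levels in CPM (TMM scaled, linear axes from 0) of 8 genes in each library, with 3 points and a line at the mean for each of the 4 groups. Amy3A, Amy3D and Amy3E were highest in tolerant heat, chitinase 1 was high in sensitive control and tolerant heat, and CYP99A2 was low in sensitive heat.

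Of 23 cytosolic and organelle heat shock proteins, chaperones that hold or refold damaged proteins, 21 rose in the sensitive and 20 in the tolerant line. The difference of responses was called positive for 2 and negative for 2 (17.4% against 2.61% of all loci), and the median was 0.23. Among all loci at 20 CPM or more, a level that 17 of the 23 reached, 9.38% were called. Mitochondrial HSP24.1 (LOC_Os02g52150, chromosome 2, 31920854 to 31922712) stood at 3.17, 3.27 and 3.95 CPM in sensitive control, 114, 107 and 109.5 CPM in sensitive heat, 3.05, 2.76 and 2.43 CPM in tolerant control and 145, 153 and 145 CPM in tolerant heat. Tolerant control lay below and tolerant heat above the same group of the sensitive line, a difference of 0.76 ± 0.13 (adjusted p = 0.00877). An HSP70 gene (LOC_Os05g38530, chromosome 5, 22599355 to 22602579) rose by log2 3.05 and 3.46 in the sensitive and tolerant line, a difference of 0.41 ± 0.09 (adjusted p = 0.0395). The disaggregase HSP101 (LOC_Os05g44340, chromosome 5, 25803530 to 25807160) went the other way, rising by 2.63 and 2.24, a difference of -0.39 ± 0.08 (adjusted p = 0.0282), and so did a further HSP70 gene (LOC_Os03g16920, chromosome 3, 9371953 to 9416082), with -0.32 ± 0.07 (adjusted p = 0.0245). Both started higher in tolerant control, at 88.0 ± 4.60 against 59.3 ± 2.17 CPM for HSP101. Of 24 heat stress factors, which switch these genes on, edgeR called 0, with 3 at an unadjusted p under 0.05, and DESeq2 called 1. With 2.61% of all loci called by edgeR, 0 of 24 is near the share of all loci. With 1 library left out, 1 to 3 of the heat shock proteins were called: 1 without sensitive heat 1, sensitive heat 2 or tolerant heat 1, and 2 without sensitive control 1, sensitive control 2, tolerant heat 2 or tolerant heat 3. HSP24.1, the HSP70 gene LOC_Os05g38530 and the HSP70 gene LOC_Os03g16920 were not called with library totals alone (adjusted p = 0.0604 to 0.209). The call of the HSP70 gene LOC_Os05g38530 was lost without each of 10 libraries in turn (adjusted p = 0.0663 to 0.113), and kept without sensitive control 3 or tolerant control 3. The call of HSP101 was lost without each of 8 libraries in turn (adjusted p = 0.0549 to 0.0808), and kept without sensitive control 1, sensitive heat 3, tolerant control 2 or tolerant heat 3. The call of the HSP70 gene LOC_Os03g16920 was lost without each of 7 libraries in turn (adjusted p = 0.0529 to 0.0685), and kept without sensitive control 2, sensitive heat 3, tolerant control 1, tolerant control 2 or tolerant heat 2.

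The main chaperones of the ER, BiP1 and GRP94, rose further in the tolerant line. Of 17 ER folding genes 5 were called positive and 0 negative (29.4%), 15 of 17 differences were above 0 whether called or not, and the median was 0.48. The called share was 2.61% of all loci and 9.38% of those at 20 CPM or more, where 13 of the 17 lie. BiP1 (LOC_Os02g02410, chromosome 2, 838717 to 842672), an Hsp70 that works inside the ER, stood at 790.4, 774 and 803 CPM in sensitive control, 1530, 1536 and 1521 CPM in sensitive heat, 729, 725 and 743 CPM in tolerant control and 2216, 2201 and 2253 CPM in tolerant heat. The groups were ordered tolerant control, sensitive control, sensitive heat and tolerant heat with no overlap, and the difference was 0.65 ± 0.04 (adjusted p = 7.59e-06). The disulfide isomerase PDIL2-3 (LOC_Os09g27830, chromosome 9, 16930987 to 16935970) stood at 51.9, 52.6 and 54.7 CPM in sensitive control, 133, 125 and 111 CPM in sensitive heat, 36.1, 40.01 and 39.4 CPM in tolerant control and 189.6, 186 and 192 CPM in tolerant heat. It showed the same order without overlap, a difference of 1.08 ± 0.10 (adjusted p = 8.85e-05). GRP94 (LOC_Os06g50300, chromosome 6, 30444411 to 30450497), an Hsp90 kept in the ER, differed by 0.68 ± 0.13 (adjusted p = 0.0123). PDIL1-1 (LOC_Os11g09280, chromosome 11, 4971248 to 4975064), which helps fold glutelin, stood at 445 ± 10.3 and 417 ± 9.26 CPM in the sensitive line and went from 399 ± 7.87 to 467 ± 10.9 CPM in the tolerant line, a difference of 0.32 ± 0.06 (adjusted p = 0.00908). PDIL1-4 (LOC_Os02g01010, chromosome 2, 3514 to 8377) fell in both, less so in the tolerant line, a difference of 0.48 ± 0.12 (adjusted p = 0.0496). Calnexin, calreticulin CRT1 and the unfolded protein response factor bZIP50 had differences of 0.57 (adjusted p = 0.0599), 0.37 (adjusted p = 0.0938) and 0.56 (adjusted p = 0.079), and were not called. Summed over the list, levels were 1834, 1837 and 1838 CPM in sensitive control, 3029, 3024 and 3014 CPM in sensitive heat, 1631, 1663 and 1629 CPM in tolerant control and 3993, 4081 and 4008 CPM in tolerant heat. The sum was lower in tolerant than in sensitive control and higher in tolerant than in sensitive heat, in every library. With library totals alone 2 of the 17 were called and the median was 0.38. GRP94 was not called with library totals alone (adjusted p = 0.101). PDIL1-4 was not called with DESeq2 size factors, library totals alone, limma on log2(FPKM + 0.1), limma on log2(FPKM + 1), the looser filter or the replicate number as a block (adjusted p = 0.05 to 0.261). PDIL1-1 was not called with library totals alone or limma on log2(FPKM + 0.1) (adjusted p = 0.0535 to 0.296). The call of PDIL1-4 was lost without each of 11 libraries in turn (adjusted p = 0.0557 to 0.113), and kept without sensitive control 1.

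DnaJ proteins are partners of Hsp70s, and of 43 tested 4 were called positive and 0 negative, at a median of 0.02. That share of 9.30% stands against 2.61% of all loci and 9.38% of those at 20 CPM or more, a level that 13 members reached. P58IPK homolog B (LOC_Os01g74580, chromosome 1, 43189156 to 43193534), an ER member in other plants and animals, fell from 19.4 ± 0.519 to 16.1 ± 0.780 CPM in the sensitive and rose from 14.4 ± 1.74 to 26.9 ± 0.952 CPM in the tolerant line, a difference of 1.18 ± 0.13 (adjusted p = 0.000369). ERDJ3B (LOC_Os05g06440, chromosome 5, 3303197 to 3307713), an ER partner of BiP in Arabidopsis, rose in both lines, with a difference of 0.44 ± 0.08 (adjusted p = 0.0122). A DnaJ domain gene (LOC_Os03g18200, chromosome 3, 10204819 to 10210306) rose by log2 1.17 and 2.12, a difference of 0.96 ± 0.16 (adjusted p = 0.00784). Proteasome subunits, which degrade unfolded proteins, had 0 of 53 called by edgeR, against 2.61% of all loci. Of the 53, 7 had an unadjusted p under 0.05 and DESeq2 called 0. ERDJ3B was not called with library totals alone (adjusted p = 0.154).

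The called differences of cytosolic ribosomal proteins, the protein part of the ribosome, were all positive. Of 95 tested genes of the large (60S) subunit 22 were called positive and 0 negative (23.2%), and of 51 of the small (40S) subunit 8 and 0 (15.7%). These shares stand against 2.61% of all loci and 9.38% of those at 20 CPM or more, a level that 61 and 41 members reached. Of the 22, 11 fell in the sensitive line alone, 6 fell further in it, 2 fell in it and rose in the tolerant line, and 3 rose in the tolerant line alone. Of the 8, these were 3, 3, 1 and 1. Many have close copies, so the split of reads is uncertain. Their median differences were 0.37 and 0.38. In the sensitive line 55 and 36 fell, and in the tolerant line 28 and 22. Ribosomal protein L9 of the 60S subunit (LOC_Os09g31180, chromosome 9, 18751895 to 18754232) stood at 121, 122 and 129 CPM in sensitive control, 60.8, 63.3 and 62.1 CPM in sensitive heat, 82.9, 66.0 and 72.8 CPM in tolerant control and 68.1, 60.6 and 71.1 CPM in tolerant heat. Sensitive control lay above all other libraries, and the difference was 0.85 ± 0.12 (adjusted p = 0.0022). The 40S genes S8 (LOC_Os02g28810, chromosome 2, 17035455 to 17038343) and S12 (LOC_Os07g12650, chromosome 7, 7233098 to 7235189) differed by 0.66 ± 0.12 (adjusted p = 0.0105) and 0.65 ± 0.12 (adjusted p = 0.0117), and S2-3 (LOC_Os07g10660, chromosome 7, 5787215 to 5789245), which fell in the sensitive and rose in the tolerant line, by 0.64 ± 0.09 (adjusted p = 0.00297). Summed over the 40S list, levels were 3271, 3140 and 3211 CPM in sensitive control, 2043, 2110 and 2123 CPM in sensitive heat, 2340, 2310 and 2371 CPM in tolerant control and 1932, 1982 and 1913 CPM in tolerant heat, so the tolerant line was already lower in control. The 60S sum, without the locus LOC_Os03g13170 whose level jumped between replicates, was 5643 to 5653 and 3832 to 3854 CPM in sensitive control and heat, and 4110 to 4128 and 3498 to 3579 CPM in tolerant control and heat.

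The ribosomal calls depended on the scaling. With library totals alone 2 of the 60S and 2 of the 40S genes were called, and the median differences were 0.27 and 0.28 against -0.10 for all loci. The tolerant medians turned from -0.04 and -0.21 to 0.28 and 0.11, and the sensitive medians from -0.48 and -0.59 to -0.07 and -0.18. Both the direction of the tolerant response and the size of the sensitive one rest on the scaling. Without sensitive control 2 or tolerant heat 2, 13 and 13 of the 60S genes were called. Without sensitive control 3, tolerant control 1 or tolerant heat 2, 5, 4 and 5 of the 40S genes were called. Of 41 translation initiation factors, which load the ribosome, 3 were called positive and 0 negative, at a median of 0.19; this is 7.32%, below the 9.38% of loci at 20 CPM or more, where 30 of the 41 lie. The S8 gene was not called with library totals alone (adjusted p = 0.0592).

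Of 30 listed genes of starch synthesis and sucrose cleavage, 18 fell in the sensitive and 20 in the tolerant line. Sucrose synthase 5, called negative above, is not in this list. The difference of responses was called positive for 2 and negative for 8 (33.3%), at a median of -0.11. Among all loci at 20 CPM or more, a level that 26 of the 30 reached, 9.38% were called, 3.70% positive and 5.68% negative. Wx (LOC_Os06g04200, chromosome 6, 1764660 to 1770656), which codes for the amylose-making starch synthase, stood at 4377, 4414 and 4506 CPM in sensitive control, 2232, 2245 and 2026 CPM in sensitive heat, 4956, 4772 and 5069 CPM in tolerant control and 1692, 1731 and 1745 CPM in tolerant heat. Tolerant control was the highest group and tolerant heat the lowest, without overlap, and the difference was -0.49 ± 0.06 (adjusted p = 0.000474). The ADP-glucose carrier BT1 (LOC_Os02g10800, chromosome 2, 5736604 to 5738853) changed by log2 -0.71 and -1.27 in the sensitive and tolerant line, a difference of -0.55 ± 0.06 (adjusted p = 0.000342). The branching enzyme BEIIb (LOC_Os02g32660, chromosome 2, 19355748 to 19367127), the dikinase PPDKB (LOC_Os05g33570, chromosome 5, 19718506 to 19726410) and the pyrophosphorylase subunit AGPS2 (LOC_Os08g25734, chromosome 8, 15666201 to 15672594), which makes ADP-glucose, differed by -0.33 ± 0.06 (adjusted p = 0.0151), -0.31 ± 0.04 (adjusted p = 0.00191) and -0.29 ± 0.05 (adjusted p = 0.00479). The phosphorylase PHOH (LOC_Os01g63270, chromosome 1, 36670221 to 36676478) differed by -0.41 ± 0.10 (adjusted p = 0.0397). BEIIb was not called with library totals alone (adjusted p = 0.0661). PHOH was not called with the looser filter or the replicate number as a block (adjusted p = 0.0505 and 0.0843). The call of PHOH was lost without each of 10 libraries in turn (adjusted p = 0.0554 to 0.0977), and kept without sensitive control 2 or tolerant control 1.

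Sucrose synthases, which cleave imported sucrose, split by gene. SUS4 (LOC_Os03g22120, chromosome 3, 12674462 to 12680657) stood at 688, 689.8 and 709 CPM in sensitive control, 419, 411 and 416 CPM in sensitive heat, 887, 904 and 893 CPM in tolerant control and 361, 346 and 327 CPM in tolerant heat. It was highest in tolerant control and lowest in tolerant heat, a difference of -0.63 ± 0.06 (adjusted p = 9.65e-05). SUS2 (LOC_Os06g09450, chromosome 6, 4796286 to 4804237) stood at 541, 531 and 547 CPM in sensitive control, 605, 618 and 642 CPM in sensitive heat, 586, 586 and 588 CPM in tolerant control and 453, 445 and 471 CPM in tolerant heat. It rose in the sensitive and fell in the tolerant line, a difference of -0.57 ± 0.05 (adjusted p = 0.000158). SUS3 (LOC_Os07g42490, chromosome 7, 25429639 to 25435182) rose from 141 ± 3.84 to 280.4 ± 7.99 CPM and from 89.7 ± 2.58 to 263 ± 2.30 CPM, a difference of 0.56 ± 0.07 (adjusted p = 0.000599), and SUS1 (LOC_Os03g28330, chromosome 3, 16301277 to 16307632) differed by 0.66 ± 0.13 (adjusted p = 0.0174). Both were lower in tolerant than in sensitive control. SUS1 was not called with library totals alone (adjusted p = 0.0706).

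Among 8 listed sugar import genes 1 was called positive, SWEET14 above, and 2 negative (37.5%). The list does not hold SWEET1b or the MST7-like sugar transporter, both called positive above, so its share and balance depend on the genes listed. This share stands against 2.61% of all loci and 9.38% of those at 20 CPM or more, where 6 of the 8 lie. The grain sugar exporter SWEET11 (LOC_Os08g42350, chromosome 8, 26725898 to 26728795) fell from 596 ± 9.06 to 253 ± 3.34 CPM in the sensitive and from 724 ± 8.39 to 226 ± 7.51 CPM in the tolerant line, a difference of -0.45 ± 0.05 (adjusted p = 0.000853). SWEET15 (LOC_Os02g30910, chromosome 2, 18454404 to 18457136), which acts beside SWEET11 in rice grain filling, rose from 93.0 ± 3.72 to 118 ± 2.42 CPM in the sensitive line and stood at 86.5 ± 4.75 and 82.5 ± 3.61 CPM in the tolerant line, a difference of -0.42 ± 0.09 (adjusted p = 0.0216). Of 17 storage proteins and their regulators 15 fell in the sensitive and 12 in the tolerant line, at a median difference of 0.02. Of the 17, 1 was called (5.88%), against 9.38% of loci at 20 CPM or more, where 16 of the 17 lie. This was the regulator NAC20 (LOC_Os01g01470, chromosome 1, 241641 to 243468), which changed by log2 -1.07 and -0.76, a difference of 0.31 ± 0.06 (adjusted p = 0.0117). NAC20 was not called with library totals alone, limma on log2(FPKM + 0.1) or log2(FPKM + 1) (adjusted p = 0.054 to 0.305). Without sensitive control 2, sensitive heat 1, sensitive heat 2, tolerant control 3, tolerant heat 2 or tolerant heat 3 in turn, the call of SWEET15 was lost (adjusted p = 0.0511 to 0.0589).

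**Figure D4:**
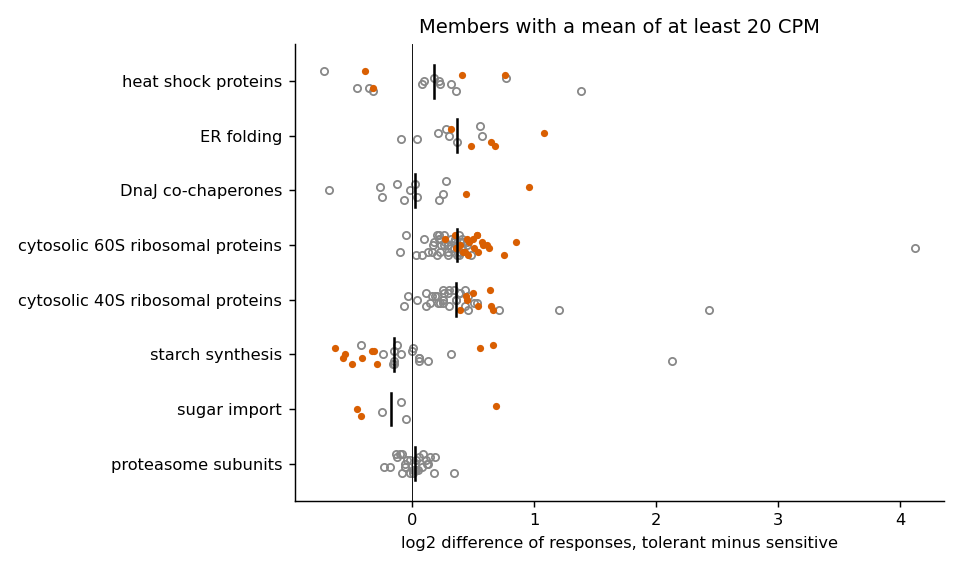
Log2 difference of responses (tolerant minus sensitive) of the members with a mean of at least 20 CPM in 8 groups of genes, with filled points for called members, open points for the rest and a bar at the median of those shown. ER folding and ribosomal genes lie mostly above 0, and called starch genes mostly below 0.

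Markers of other grain tissues moved as well. Of 4 embryo markers 3 were called negative: cupincin, above, and the oil body proteins OLE16 (LOC_Os04g46200, chromosome 4, 27362086 to 27362954) and OLE18 (LOC_Os03g49190, chromosome 3, 28021862 to 28022837), with -0.47 ± 0.06 (adjusted p = 0.00116) and -0.30 ± 0.06 (adjusted p = 0.0216). Among all loci at 20 CPM or more, a level that all of these markers reached, 5.68% were called negative. Summed over the list, levels were 5001, 4881 and 4879 CPM in sensitive control, 4497, 4373 and 4218 CPM in sensitive heat, 5788, 5563 and 6048 CPM in tolerant control and 3798, 3959 and 3829 CPM in tolerant heat, so the tolerant line was higher in control and lower in heat. The sum of the 6 endosperm markers fell from 65138 ± 1812 to 32897 ± 1105 CPM in the sensitive and from 69498 ± 2532 to 38393 ± 804 CPM in the tolerant line. Summed green tissue markers stood at 983 to 1037 and 907 to 966 CPM in sensitive control and heat. In tolerant control and heat they stood at 984 to 1047 and 865 to 907 CPM. Of 7 green tissue markers 1 was called, negative (14.3%), against 9.38% of loci at 20 CPM or more, where 6 of the 7 lie. The median difference was -0.08, and 3 of the 7 differences were above 0. The called marker was the Rubisco activase RCA (LOC_Os11g47970, chromosome 11, 28932979 to 28936053), with -0.49 ± 0.07 (adjusted p = 0.00284). No embryo, endosperm or green marker was at 0 counts in any library, while the aleurone and scutellum amylases Amy1A and Amy3D were at 0 in some. The part of tissue make-up in the differences above was not tested. Without sensitive control 2, sensitive heat 1, sensitive heat 2 or tolerant heat 1 in turn, the call of OLE18 was lost (adjusted p = 0.05 to 0.0617).

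Lipid transfer proteins, small secreted proteins that bind lipids, had 7 of 54 called positive and 0 negative (13% against 2.61% of all loci), at a median of 0.24. Without sensitive heat 1 or sensitive heat 2, 4 of them were called. Of 265 F-box proteins, adaptors of ubiquitin ligases, 4 were positive and 6 negative, a share of 3.77%, close to that of all loci. A kelch-repeat F-box gene (LOC_Os06g39370, chromosome 6, 23367125 to 23368831) stood at 15.7, 14.7 and 14.4 CPM in sensitive control, 24.9, 27.1 and 21.6 CPM in sensitive heat, 14.1, 12.6 and 12.5 CPM in tolerant control and 61.1, 58.9 and 61.1 CPM in tolerant heat. Tolerant heat lay above every other library, a difference of 1.49 ± 0.13 (adjusted p = 5.95e-05). The glutathione S-transferase GSTU6 (LOC_Os10g22070, chromosome 10, 11398327 to 11399073), peroxidase 24 (LOC_Os01g16450, chromosome 1, 9339815 to 9342304) and the tonoplast aquaporin TIP1-1 (LOC_Os03g05290, chromosome 3, 2562732 to 2564648) rose in both lines, further in the tolerant line, with differences of 1.16 ± 0.14 (adjusted p = 0.000623), 1.06 ± 0.17 (adjusted p = 0.00514) and 0.47 ± 0.08 (adjusted p = 0.00567). TIP1-1 was not called with library totals alone (adjusted p = 0.112).

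Further enzymes and wall proteins gave differences in both directions. The shares given here stand against 2.61% of all loci and 9.38% of those at 20 CPM or more. Of 33 expansins 2 were positive and 1 negative (9.09%): beside expansin-A23, expansin-B3 (LOC_Os10g40720, chromosome 10, 21847804 to 21849726) rose in both lines, further in the tolerant, with 0.62 ± 0.12 (adjusted p = 0.0132), and expansin-A4 (LOC_Os05g39990, chromosome 5, 23495606 to 23497572) fell further in the tolerant line, with -0.65 ± 0.14 (adjusted p = 0.0308). Of 137 loci listed as cytochromes P450 by the words of their annotation, 3 were positive and 2 negative (3.65%). That list does not hold the phytocassane P450 gene LOC_Os02g36110, so the count does not cover every P450 named here. A gene annotated as CYP78A5 (LOC_Os07g41240, chromosome 7, 24713778 to 24715813), after an organ size enzyme of Arabidopsis, rose from 10.6 ± 0.257 to 16.6 ± 1.26 CPM in the sensitive and from 5.09 ± 0.300 to 14.4 ± 1.49 CPM in the tolerant line, a difference of 0.85 ± 0.15 (adjusted p = 0.00794). CYP73A100 (LOC_Os02g26810, chromosome 2, 15734823 to 15737184), of the family that makes coumaric acid for lignin, fell in the tolerant line from 11.4 ± 1.03 to 6.51 ± 0.481 CPM and stood at 10.2 ± 0.146 and 10.2 ± 0.660 CPM in the sensitive line, a difference of -0.80 ± 0.15 (adjusted p = 0.0127). The aspartic proteinase annotated as nepenthesin-1 (LOC_Os09g27940, chromosome 9, 16977482 to 16980623) fell further in the sensitive line, with 1.42 ± 0.22 (adjusted p = 0.00429). Of 11 lipoxygenases 3 were negative and 0 positive (27.3%), including the pair given above. expansin-B3 was not called with library totals alone (adjusted p = 0.122). The call of expansin-A4 was lost without each of 9 libraries in turn (adjusted p = 0.0503 to 0.081), and kept without sensitive control 2, sensitive heat 2 or tolerant control 2.

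Among lipid transfer proteins, nsLTP2 (LOC_Os05g47700, chromosome 5, 27330644 to 27331350) rose from 1.80 ± 0.338 to 3.23 ± 0.241 CPM in the sensitive and from 1.48 ± 0.260 to 6.43 ± 0.842 CPM in the tolerant line, a difference of 1.27 ± 0.28 (adjusted p = 0.0314). A pair of neighbours on chromosome 11, nsLTP3 (LOC_Os11g02350, chromosome 11, 684611 to 685626) and nsLTP2A (LOC_Os11g02369, chromosome 11, 693419 to 693864), differed by 0.91 ± 0.19 (adjusted p = 0.0232) and 0.82 ± 0.11 (adjusted p = 0.00107). The F-box protein PP2-A13 (LOC_Os03g02550, chromosome 3, 942694 to 945066) rose by log2 0.95 and 2.27, a difference of 1.32 ± 0.26 (adjusted p = 0.0162). The called initiation factors were all subunits of eIF3, which holds the small ribosomal subunit ready: 3I (LOC_Os08g21660, chromosome 8, 12906720 to 12913661) with 0.72 ± 0.14 (adjusted p = 0.0152), 3L (LOC_Os05g13950, chromosome 5, 7761935 to 7768326) with 0.44 ± 0.08 (adjusted p = 0.0131) and 3B (LOC_Os10g41960, chromosome 10, 22563359 to 22567797) with 0.42 ± 0.10 (adjusted p = 0.0353). Of these, 3I fell in the sensitive line, 3L rose in the tolerant line, and 3B did both. nsLTP2, PP2-A13, eIF3I and eIF3L were not called with library totals alone (adjusted p = 0.0558 to 0.192). eIF3B was not called with library totals alone, limma on log2(FPKM + 0.1) or log2(FPKM + 1) (adjusted p = 0.114 to 0.196). The call of nsLTP2 was lost without each of 8 libraries in turn (adjusted p = 0.0566 to 0.0868), and kept without sensitive control 3, tolerant control 1, tolerant control 3 or tolerant heat 3. The call of nsLTP3 was lost without each of 7 libraries in turn (adjusted p = 0.052 to 0.0649), and kept without sensitive control 1, tolerant control 1, tolerant control 2, tolerant control 3 or tolerant heat 1. The call of eIF3B was lost without each of 9 libraries in turn (adjusted p = 0.0599 to 0.0966), and kept without sensitive control 1, sensitive heat 2 or sensitive heat 3.

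Families of transcription factors were called at 2.94% of 68 WRKY, 7.94% of 63 NAC, 3.37% of 89 ERF and DREB and 9.09% of 22 bZIP members, against 2.61% of all loci. Among loci at 20 CPM or more, where 7 of the 22 bZIP members lie, 9.38% were called. The bZIP calls were 1 positive and 1 negative, and 0 with library totals alone or the replicate number as a block. No bZIP member was called without sensitive control 1, sensitive heat 1 or 2, tolerant control 1 or 2, or tolerant heat 1 or 2. NAC factors had 4 positive and 1 negative calls, and 3 calls in all without sensitive heat 1. NAC83 (LOC_Os09g33490, chromosome 9, 19749085 to 19750976) fell from 6.96 ± 0.546 to 2.47 ± 0.0390 CPM in the sensitive line and stood at 3.90 ± 0.464 and 3.05 ± 0.636 CPM in the tolerant line, a difference of 1.14 ± 0.25 (adjusted p = 0.0275). A NAC2-like gene (LOC_Os03g60080, chromosome 3, 34166099 to 34167546) rose by log2 0.58 and 1.25, a difference of 0.68 ± 0.10 (adjusted p = 0.00297). RAP2-3 (LOC_Os03g22170, chromosome 3, 12713329 to 12714584), of the ERF group that acts in low oxygen in Arabidopsis, changed by log2 -1.18 and -2.04, a difference of -0.86 ± 0.20 (adjusted p = 0.0423). ERF2 (LOC_Os04g46220, chromosome 4, 27370862 to 27373629) rose by log2 0.52 and 1.33, a difference of 0.81 ± 0.16 (adjusted p = 0.0196). NAC83 was not called with library totals alone, limma on log2(FPKM + 0.1) or log2(FPKM + 1), or the replicate number as a block (adjusted p = 0.0512 to 0.0747). ERF2 was not called with library totals alone (adjusted p = 0.0953). The call of NAC83 was lost without each of 9 libraries in turn (adjusted p = 0.0562 to 0.0761), and kept without sensitive control 3, tolerant control 1 or tolerant heat 2. The call of RAP2-3 was lost without each of 10 libraries in turn (adjusted p = 0.0556 to 0.105), and kept without sensitive heat 3 or tolerant control 1. Without sensitive heat 3, tolerant heat 1 or tolerant heat 2 in turn, the call of ERF2 was lost (adjusted p = 0.0514 to 0.0534).

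Other lists had few or no calls, where 2.61% of all loci were called. Protein kinases had 2 positive and 5 negative of 451 (1.55%), and pentatricopeptide proteins, which process organelle RNA, 0 and 2 of 310 (0.645%). Without sensitive heat 3 or tolerant heat 2, 4 of the kinases were called. MADS-box factors had 0 of 36 called by edgeR, with 5 at an unadjusted p under 0.05 and 0 called by DESeq2. Genes of abscisic acid synthesis and breakdown had 0 of 8, with 3 at an unadjusted p under 0.05 and 2 by DESeq2. Of 10 clock genes the morning factor LHY (LOC_Os08g06110, chromosome 8, 3360802 to 3373434) was called: it fell from 359 ± 28.6 to 121 ± 8.04 CPM in the sensitive and from 461 ± 31.1 to 112 ± 2.99 CPM in the tolerant line, a difference of -0.47 ± 0.10 (adjusted p = 0.0273). LHY was not called with library totals alone (adjusted p = 0.054). The call of LHY was lost without each of 8 libraries in turn (adjusted p = 0.0514 to 0.0751), and kept without sensitive control 2, sensitive heat 1, tolerant control 3 or tolerant heat 3.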

How the data were processed

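Raw counts per locus and FPKM values for 50708 loci were deposited by the authors in 1 table, with 1 column of each per library, per the file headers. The FPKM values were used only for alternatives. Libraries were rRNA-depleted and strand-marked and read as pairs of 150 bases, per the labels' protocols. The submitters' processing notes list edgeR, DESeq2, StringTie 2.1.6, HISAT2 2.2.1 and cutadapt 1.9. They also name a mouse build. The rice build behind the coordinates, which are printed as in the deposited table, and the counting settings are not given in sources used here. Of counts from 1 to 20, 37.6% to 40.8% were multiples of 4, so counts may not be single fragments.

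Counts were filtered with filterByExpr, TMM scaled and fitted with edgeR 4.0.16 (R 4.3.3) by quasi-likelihood over all 12 libraries, with 8 residual degrees of freedom. Standard errors are the log2 value divided by the root of F. P-values were Benjamini-Hochberg adjusted over all 33281 loci. The fit was tested on simulated counts that had the same scatter at every locus and no planted line differences at low loci. That test says nothing of such loci or of uneven scatter. Alternatives were DESeq2 1.42.0, other scalings and filters, limma 3.58.1 on log2(FPKM + 1) or log2(FPKM + 0.1), a replicate block, a threshold of 0.01 and each library left out. On the FPKM scales fold changes of low genes are understated.

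Members and lists were chosen with earlier results of these data known. Genes were named by rule: a called row with 1 locus and a protein name, at least 5 CPM in a group and an SD at most 0.5 of the mean, the 3 with the largest difference in each of the 10 kinds and up to 4 per list. Amy1A, Amy1C, PDIL1-1, BT1, BEIIb, PPDKB, AGPS2, PHOH and uncalled members fall outside it and were chosen after their values were seen.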

Additional observations from a re-analysis of the deposited data

Results flagged for a closer look

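The lines' responses differed at an adjusted p under 0.001 in edgeR's test of the difference itself for some genes named for the size of their difference. Log2 differences of responses, tolerant minus sensitive, were positive for CYP99A2 (2.83), syn-copalyl diphosphate synthase (2.40), Amy3D (8.66), the phytocassane P450 gene LOC_Os02g36110 (6.08), chitinase 1 (4.27), Amy3A (10.98) and the Dau c 1 gene (2.39). They were negative for the NADPH oxidase gene LOC_Os12g35610, annotated as RBOHB (-1.08), and peroxiredoxin-2E-1 (-4.77). The fitted values of Amy3A and Amy3D rest on tolerant control libraries near 0 and depend on the prior count.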

How the results depend on the processing

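The count of called loci was 633 to 814 with 1 library left out, with 301 to 378 positive and 326 to 441 negative. The classes then held 317 to 395 (same direction), 57 to 72 (opposite), 135 to 184 (tolerant only), 100 to 170 (sensitive only) and 0 (neither) loci. DESeq2 called 1752 loci, 859 positive and 893 negative, among them all 867 of edgeR. Its classes held 797 (same direction), 454 (tolerant only), 397 (sensitive only) and 10 (neither). With library totals alone 209 were positive. On log2(FPKM + 0.1) 700 were negative and 116 opposite, and on log2(FPKM + 1) 745 and 119. At an adjusted p under 0.01, 388 loci were called, 180 positive and 208 negative, in classes of 197 (same direction), 32 (opposite), 97 (tolerant only) and 62 (sensitive only). With the replicate number as a block 630 loci were called, 134 of them in the tolerant-only class, and 17 of the 107 named genes lost their call. The numbers share no label of day or plant, and correlations of same-numbered libraries were -0.0123 to 0.0287, against -0.0242 to 0.02 for others. Of the 107 named genes 79 kept their call without each library in turn, 74 with library totals alone and 98 on log2(FPKM + 1), where the differences of 21 moved by over 1.5 times. None of the 107 changed sign in any alternative run. Amy1A, named outside the rule, did on log2(FPKM + 1), at -0.35. The cause of these shifts was not tested. Depth limits what can be said of 82 called loci under 5 CPM in every group.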

Other observations

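Called differences were spread over the genome at 2.19% (chromosome 6) to 2.87% (chromosome 5) of the tested loci of a chromosome. In 3 stretches, chosen after their values were seen, called loci lay close together and all were positive, so no test is given. On chromosome 4, between 5318060 and 5486773, 3 of 8 tested loci were called. Beside CYP99A2 and syn-copalyl diphosphate synthase this was syn-pimara-7,15-diene synthase (LOC_Os04g10060), the next enzyme of momilactone synthesis, with means of 3.69, 0.0499, 3.29 and 1.42 CPM in sensitive control, sensitive heat, tolerant control and tolerant heat and a difference of 4.94 ± 0.98 (adjusted p = 0.0174). Without sensitive heat 2 its difference was 10.19. In the same stretch the momilactone oxidase gene LOC_Os04g09920 fell alike in both lines, by log2 -1.96 and -2.23, with a difference of -0.26 ± 0.44 (adjusted p = 0.876).

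On chromosome 2, between 21740304 and 21906350, 3 of 9 were called. Beside the phytocassane P450 gene these were ent-copalyl diphosphate synthase 2 (LOC_Os02g36210), the entry enzyme of phytocassane synthesis, with means of 36.2, 7.59, 41.1 and 14.9 CPM in the same order and a difference of 0.78 ± 0.13 (adjusted p = 0.00533), and oryzalexin E synthase (LOC_Os02g36280), with means of 3.32, 0.0250, 2.19 and 0.952 CPM and a fitted difference of 5.76 ± 0.72 (adjusted p = 0.00095). The synthase LOC_Os02g36140 between them had a difference of 0.37 ± 0.17 (adjusted p = 0.361).

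On chromosome 12, between 22580778 and 22601258, 4 of 5 loci were called, all of the PR10 family. Their patterns were unlike: the Dau c 1 gene and the first Bet v 1-D/H gene fell in the sensitive line alone, LOC_Os12g36860 rose in the tolerant line alone, and LOC_Os12g36880 fell in the sensitive and rose in the tolerant line, with means of 39.9, 15.7, 22.8 and 28.9 CPM and a difference of 1.68 ± 0.13 (adjusted p = 3.48e-05). These are similar copies, so reads may be split between them. The diene synthase was not called with limma on log2(FPKM + 1) (adjusted p = 0.0907).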
